A study of Mus musculus with 6 samples.

Results

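Axon guidance genes encode the ligands and receptors that steer growing nerve fibers, and many of them are also used by vessels and connective tissue. The genes described here are all those in the deposited gene list whose symbols belong to the semaphorins, plexins, neuropilins, Slits, Robos, netrins (Ntn1, Ntn3, Ntn4 and Ntn5), the netrin receptors Dcc and Unc5a to Unc5d, the ephrins and the Eph receptors. They number 69 of 33697 genes. They comprise 20 semaphorins, 9 plexins, 2 neuropilins, 3 Slits, 4 Robos, 4 netrins, 5 netrin receptors, 8 ephrins and 14 Eph receptors. The rule reads symbols and no measured value, but the families were picked with earlier results of these data known. None of the genes was a marker in the gates that define the cell classes.

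The cells were live tdTomato+ cells that had been sorted from intestinal lamina propria. The study later dropped clusters almost free of tdTomato, a step not taken here, so a class named below need not consist of reporter cells. The mice were Flare-TSLP reporters, kept on a C57BL/6 background per the study's methods, whose cells make the fluorescent protein tdTomato where they transcribe Tslp, the gene of the cytokine thymic stromal lymphopoietin. All 6 libraries came from such reporter mice with no treatment, and the labels name no control without the reporter. The small intestine gave 4, with replicates 1 and 2 of its proximal and of its distal region, and the large bowel gave 2, a cecum and a large intestine library. Cells carried hashtags, which are barcoded antibodies that mark the cells of a source, but no table pairs hashtags with mice, so each library was 1 sample and the p-values measure the spread between libraries.

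Libraries held from 109675337 to 206827504 UMIs on genes, the molecular tags that count captured transcripts. Between 11174 and 19073 cells per library remained after filters and removal of predicted doublets, with a median of 6606 to 9233 UMIs per cell, and 93.8% to 98.2% of them fell into a class gated by counts of marker genes. This share includes other fibroblasts, which passed the fibroblast gate but belong to none of the fibroblast classes named below. They made up 18.4% to 33.8% of cells per small intestinal library, 56.5% for cecum and 37.2% for large intestine. Pairs of libraries shared 38 to 118 cell barcodes, which was 0.323% to 0.609% of the smaller library. Free RNA, taken from barcodes too poor in UMIs to be cells, held 2.9% to 3.82% of the UMIs. In the small intestine the summed level of the fibroblast markers was 24554 to 30381 CPM (a gene's count per 1000000 UMIs summed over the class in that library) in fibroblast-like cells against 721 to 1206 CPM in lymphatic endothelial cell (LEC)-like cells. The summed LEC markers stood at 13560 to 14070 CPM in LEC-like cells against 249 to 329 CPM in fibroblast-like cells. Among the cells of a class, those holding exactly the required number of markers made up 4.79% to 15% of LEC-like, 14.8% to 42.1% of subepithelial myofibroblast (SEMF)-like, 23.4% to 43.5% of trophocyte-like, 34.2% to 51.8% of telocyte-like and 23.6% to 61.8% of universal fibroblast-like cells per library. The reads of tdTomato itself were few, from 289 to 1017 UMIs in the cells of a library.

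Semaphorins signal through plexins, and most secreted semaphorins also need a neuropilin, a coreceptor that vascular endothelial growth factors use as well. Slits bind Robo receptors and often repel cells, netrins attract through Dcc and repel through Unc5 receptors, and ephrins act on Eph receptors at cell contacts, with signals in both cells. In vessels these families take part in sprouting and in the separation of arteries, veins and lymphatics, and in the gut wall they take part in the patterning of nerves and mesenchyme.

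In the small intestine 52 of the 69 genes reached a mean of 10 CPM in at least 1 of 12 classes. The other fibroblasts were not among these 12, so the highest class of a gene is the highest of the 12 only. Blood endothelial-like cells held the highest mean for 16 of these 52, LEC-like cells for 8, glia-like cells for 7, pericyte-like cells for 6 and SEMF-like and trophocyte-like cells for 4 each. The same count was not made over all genes, so these numbers cannot show an excess of axon guidance genes in a class. For many of these genes the libraries of the highest class overlapped those of the next class. Among them were Efnb1, Efnb3, Ephb4, Plxna4 and Sema4c of blood endothelial-like cells and Sema7a and Unc5b of LEC-like cells. The same held for Plxna1 and Robo2 of SEMF-like cells and for every trophocyte-like gene (Efna5, Epha5, Ephb3 and Slit2). Glia-like means rest on 22 to 46 cells in each of 3 libraries. The number of genes at 10 CPM or above was similar among the main classes, with 27 in universal fibroblast-like, 28 in SEMF-like, 29 in trophocyte-like, 29 in LEC-like, 31 in telocyte-like, 33 in blood endothelial-like and 34 in pericyte-like cells. When every cell was thinned to 2500 UMIs, 35 to 41 of the genes were seen in at least 1% of the cells of each of these classes. At this depth Epha5 and Ephb3 were seen in 5.58% and 7.61% of other fibroblasts, against 4.23% and 7.14% of trophocyte-like cells. Robo2 was seen in 89.8% of other fibroblasts and 88.2% of SEMF-like cells. The shares of Efna5 and Slit2 were larger in trophocyte-like cells, and those of Plxna1, Robo1 and Unc5c in SEMF-like cells. The 17 genes that stayed below 10 CPM included Dcc, the attractive netrin receptor, Slit1, Unc5d, Efna3, Ntn5, Epha8 and Epha10. A CPM value compares 1 gene between classes and not different genes, because only the 3' ends of transcripts were captured.

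**Figure D1:**
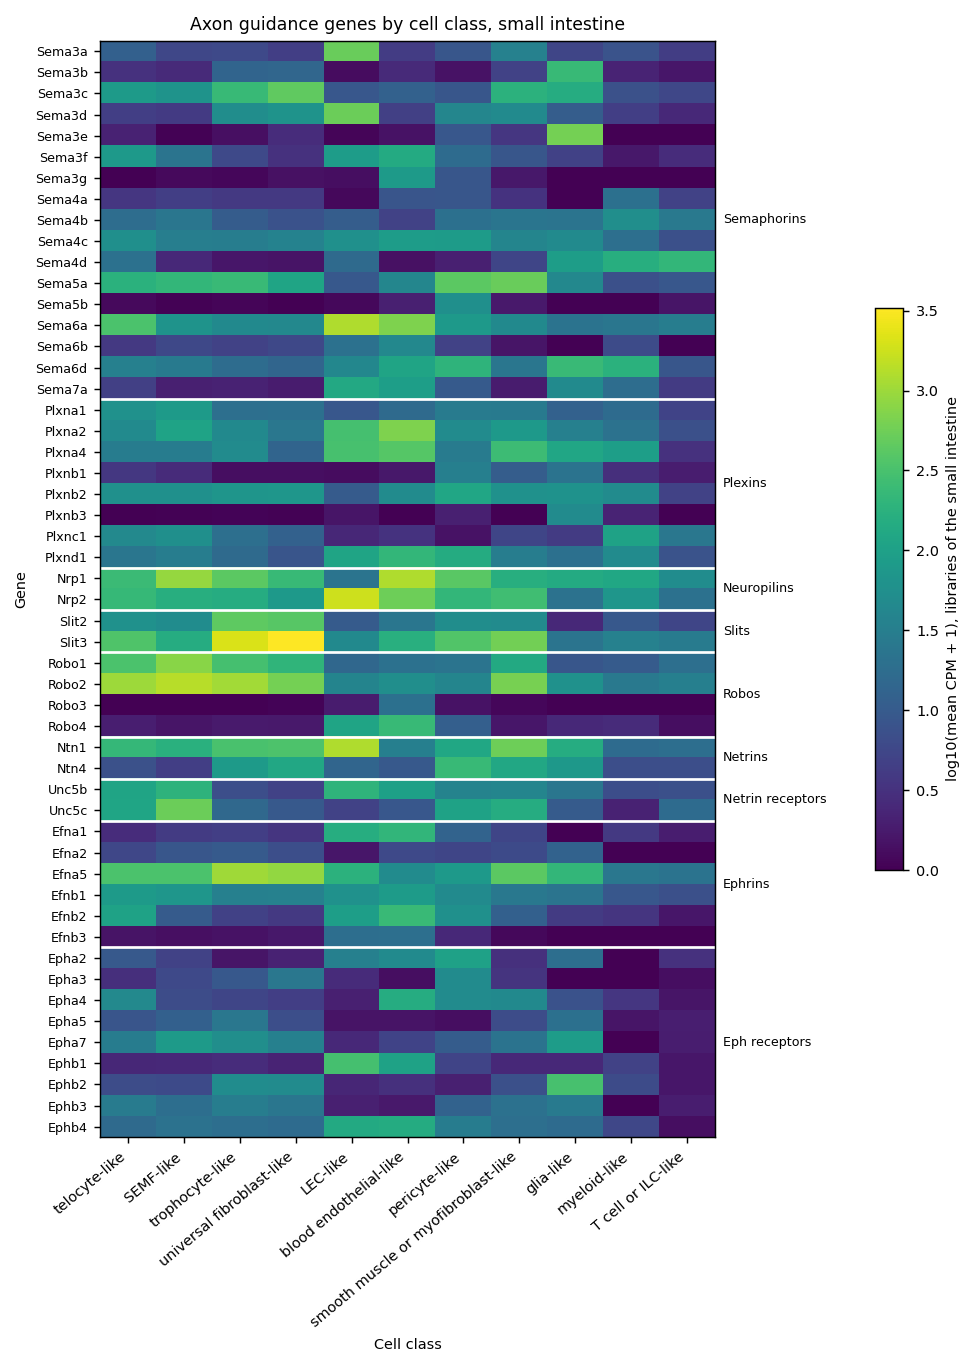
Heat map of the 52 axon guidance genes that reached a mean of 10 CPM in at least 1 class of the small intestine. Columns are marker-gated cell classes, rows are genes grouped by family, and color is log10 of the mean CPM plus 1 over libraries. Sema3a, Sema3d and Ntn1 are brightest in LEC-like cells, Slit2 and Slit3 in trophocyte-like and universal fibroblast-like cells, Unc5c and Robo1 in SEMF-like cells and Sema3e in glia-like cells.

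LECs were compared with fibroblasts because these were the main populations sorted by the reporter. LEC-like cells carried the ligands Sema3a, Sema7a and Efna1, which fibroblast-like cells held at low levels. They also carried more Sema3d, Sema6a and Ntn1 than fibroblast-like cells, which held these too. The fibroblast-like means were 33 CPM for Sema3d and 54.8 CPM for Sema6a. Fibroblast-like cells carried Slit2, Slit3, Robo1, Robo2 and Nrp1. Of the 62 genes tested, 25 were higher and 31 were lower in LEC-like cells, which is 90.3%. Of all genes tested, 35.9% were higher and 38.7% lower, 74.6% in all. The median log2 difference was -0.95 over these genes and -0.05 over all genes.

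Sema3a encodes a secreted semaphorin that repels axons and acts on lymphatic valves and smooth muscle coverage. Its level in LEC-like cells was 541 and 493 CPM in the proximal libraries and 506 and 527 CPM in the distal ones, against 3.2 to 7.94 CPM in fibroblast-like cells. The groups lay far apart, with a log2 difference of 6.95 ± 0.26 (SE, edgeR adjusted p = 1.13e-06). After thinning to 2500 UMIs, 59.4% of LEC-like and 1.08% of trophocyte-like cells had a Sema3a UMI, and without thinning these means were 80.8% and 3.7%. Sema3d, a secreted semaphorin beside Sema3a on the chromosome, stood at 470 to 615 CPM in LEC-like cells with a log2 difference of 4.18 ± 0.25. Sema6a, a transmembrane semaphorin that binds plexins directly, stood at 1037 to 1435 CPM against 45.7 to 58.9 CPM. Sema7a, a membrane-anchored semaphorin, stood at 107 to 158 CPM against 0.429 to 2.2 CPM. The log2 differences of these last genes were 4.58 ± 0.07 for Sema6a and 6.96 ± 0.26 for Sema7a, and no library of one class overlapped the other.

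Ntn1, the founding netrin, was measured in both classes but at different levels. LEC-like cells held 1293, 1237, 1244 and 1289 CPM in proximal replicates 1 and 2 and distal replicates 1 and 2. Fibroblast-like cells held 332, 388, 226 and 297 CPM, for a log2 difference of 2.10 ± 0.11 (edgeR adjusted p = 5.42e-06). Among the netrin receptors, the repulsive receptor Unc5b was also higher in LEC-like cells, at 172 to 211 CPM against 15.9 to 51.8 CPM. Unc5c, its close relative, went the other way, with 1.87 to 7.9 CPM in LEC-like cells and 34.2 to 162 CPM in fibroblast-like cells.

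Receptors that were higher in LEC-like cells included Ephb1, Robo4, Epha2 and Nrp2. Ephb1, a receptor for B-type ephrins, stood at 292, 335, 259 and 335 CPM in LEC-like cells and at 0.626 to 2.58 CPM in fibroblast-like cells (log2 difference 7.72 ± 0.27, edgeR adjusted p = 9.81e-07). Robo4, the Robo of endothelial cells, stood at 104 to 119 CPM against 0.306 to 1.01 CPM (log2 difference 7.32 ± 0.28). Nrp2, the coreceptor for Sema3f and for the lymphatic growth factor Vegfc, stood at 1533 to 2017 CPM against 155 to 212 CPM (log2 difference 3.40 ± 0.10). Both classes expressed Nrp2, whereas Ephb1 and Robo4 were near 0 in fibroblast-like cells. The plexins Plxna2, Plxna4 and Plxnd1, which serve as receptors for secreted semaphorins, were higher in LEC-like cells as well, with log2 differences of 2.44 ± 0.10, 2.47 ± 0.24 and 2.57 ± 0.06. The ephrins were split, with 4 of the 7 tested higher and 3 lower in LEC-like cells. Log2 differences were 5.65 ± 0.13 for Efna1, 5.37 ± 0.18 for Efnb3, 3.72 ± 0.30 for Efnb2, the arterial ephrin, and 0.64 ± 0.04 for Efnb1. Efna2, Efna4 and Efna5 were lower, with log2 differences of -3.41 ± 0.18, -1.71 ± 0.23 and -2.29 ± 0.12. Epha2, a main receptor of Efna1, stood at 24.8 to 36.3 CPM against 0.458 to 2.19 CPM (log2 difference 4.82 ± 0.25). Other Eph receptors went the other way, with log2 differences of -5.26 for Epha5 and -4.83 for Epha7. Mean levels of Ephb2, Ephb3 and Epha3 were 1.38, 1.07 and 1.71 CPM in LEC-like and 34.8, 28.4 and 16.1 CPM in fibroblast-like cells. Ephb4 was higher in LEC-like cells, at 136 CPM against 17.7 CPM.

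Slits and their main receptors lay on the fibroblast side. Slit3 stood at 1857, 1770, 1425 and 1372 CPM in fibroblast-like cells and at 35.7, 42.2, 40 and 67.6 CPM in LEC-like cells, a log2 difference of -5.09 ± 0.25 (edgeR adjusted p = 3.6e-06). Slit2 stood at 226 to 324 CPM against 5.37 to 15.5 CPM, and Robo2 at 1074 to 1581 CPM against 30 to 57.4 CPM. Robo1 and Nrp1, the coreceptor of Sema3a, fell by 4.80 ± 0.12 and 4.66 ± 0.23 on the log2 scale. LEC-like cells thus held Sema3a with little Nrp1, at 14.8 to 28.3 CPM, while fibroblast-like cells held Nrp1 at 419 to 631 CPM with little Sema3a. In LEC-like cells the levels of Slit3, Robo2, Robo1, Slit2, Sema5a and Nrp1 were a median of 4.47% to 7.05% of their levels in free RNA. Efna5, an ephrin whose level was also lower in LEC-like cells (121 to 233 CPM against 754 to 982 CPM), stood at a median of 38.4% of its level in free RNA.

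**Figure D2:**
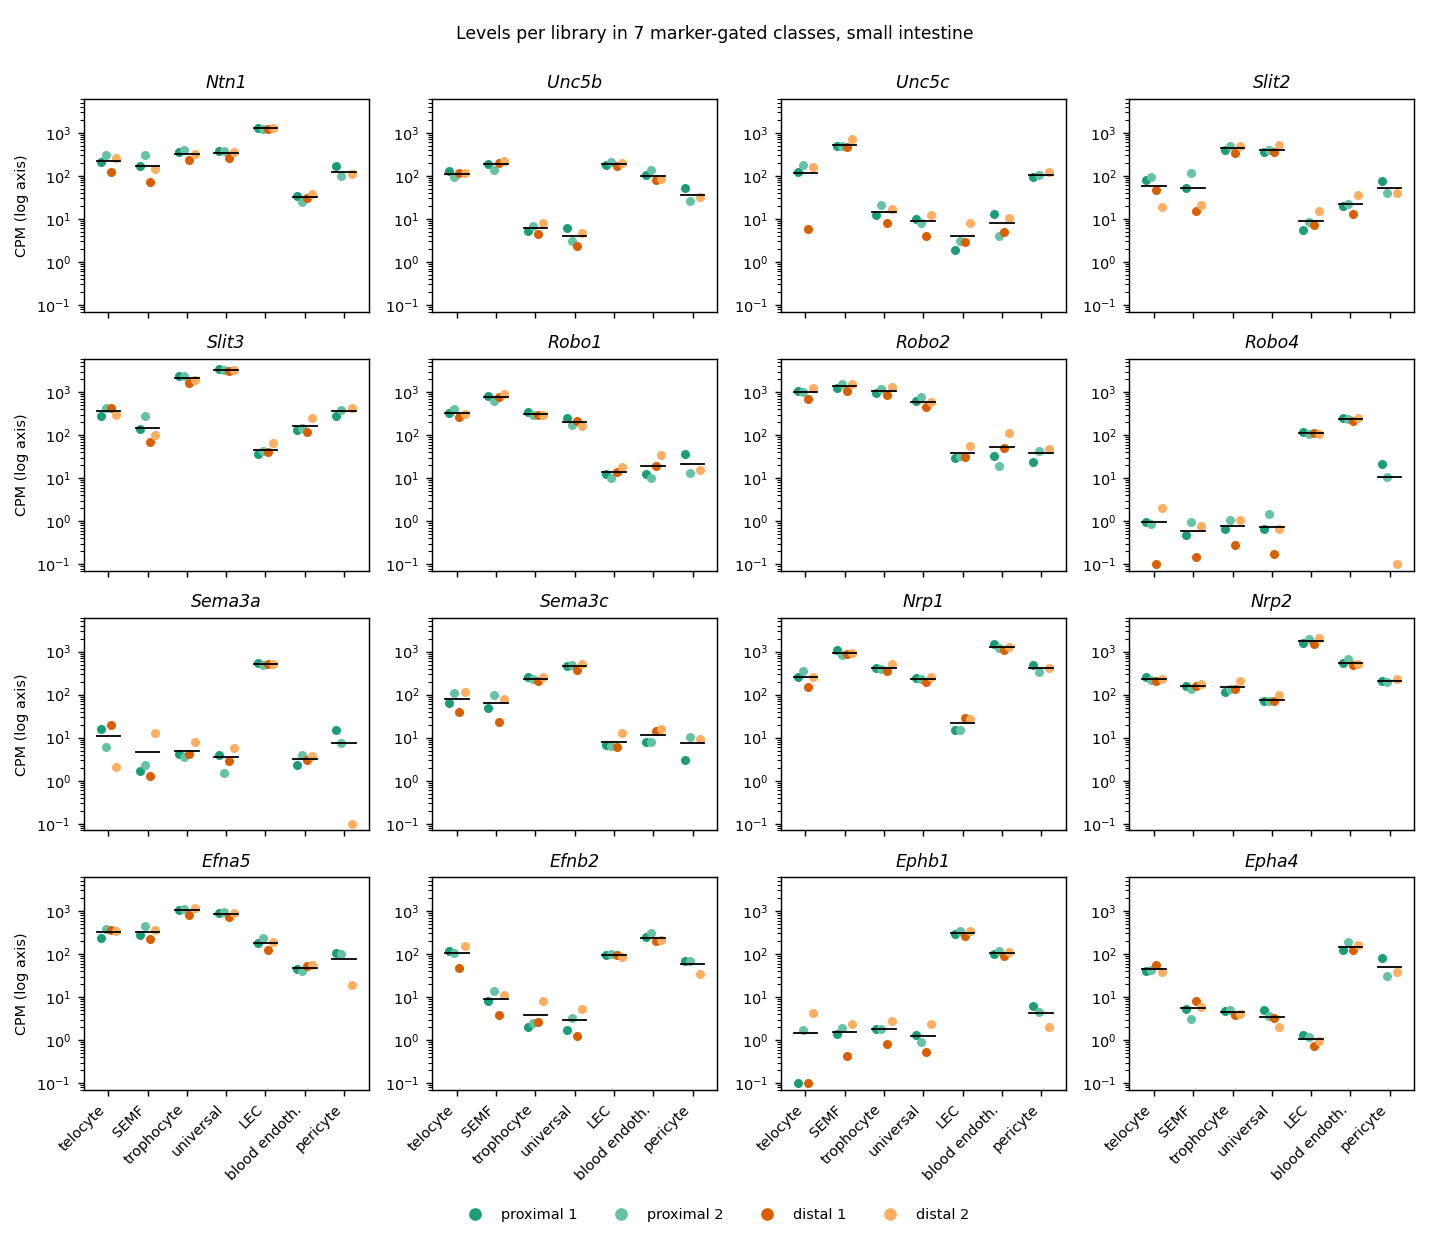
Levels of 16 axon guidance genes in 7 classes of the small intestine, in CPM on a log axis. Each point is 1 library, the bar is the mean, and a point on the bottom edge is a library with no UMI of the gene. Distal replicate 1 is missing from pericyte-like cells, where it had 12 cells. Sema3a and Ephb1 separate LEC-like cells from the fibroblast classes, Nrp1 shows the reverse, and Unc5c in telocyte-like cells has 1 low library, distal replicate 1.

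Fibroblast-like cells pool several classes and the other fibroblasts in proportions that differ between libraries. LEC-like cells had fewer UMIs, with class medians of 4713 to 7694 against 7466 to 10179 in SEMF-like cells over the 6 libraries. The 8 genes with the largest changes in each direction kept their calls when 10% free RNA was subtracted, when gates were stricter and when each library was left out. Of 21 immediate early and heat shock genes, which react to tissue digestion, 9 were higher and 3 lower in LEC-like cells, and their part in these differences was not tested.

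Promoter windows from RefSeq (build GRCm38.p6) were matched for 59 of the 69 genes and gave 75 windows of 250 bases before and 50 after a transcription start. Their median GC content was 64.3%, where that of all 32851 promoter windows in the table was 52.7%. The GC box GGGCGG, searched on both strands, was present in 53 windows (70.7%) and in 35.7% of all windows, and the TATA box TATAAA in 2.67% and 13.6%. The motif TGANTCA of AP-1 was found in 4% and 7.81% of windows and the motif CCGGAA of ETS factors in 9.33% and 14.9%. Shown here are the 250 bases before the start for 3 genes that were highest in LEC-like or blood endothelial-like cells (Sema3a, Ephb1 and Robo4) and 3 that were highest in fibroblast classes (Slit2, Slit3 and Unc5c), because the comparisons of classes and regions turn on these genes. Letters are lower case, and capitals mark a GC box or a TATA box on either strand. They lie at chr5:13396534-13396783 on the plus strand (Sema3a), chr9:102354694-102354943 on the minus strand (Ephb1), chr9:37401722-37401971 on the plus strand (Robo4), chr5:47982905-47983154 on the plus strand (Slit2), chr11:35121206-35121455 on the plus strand (Slit3) and chr3:141465314-141465563 on the plus strand (Unc5c).
Sema3a: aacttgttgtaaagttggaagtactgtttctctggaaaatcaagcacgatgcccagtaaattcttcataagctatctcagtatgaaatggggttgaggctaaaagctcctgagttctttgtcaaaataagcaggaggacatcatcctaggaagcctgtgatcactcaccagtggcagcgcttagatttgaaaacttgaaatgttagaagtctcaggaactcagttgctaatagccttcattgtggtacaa
Ephb1: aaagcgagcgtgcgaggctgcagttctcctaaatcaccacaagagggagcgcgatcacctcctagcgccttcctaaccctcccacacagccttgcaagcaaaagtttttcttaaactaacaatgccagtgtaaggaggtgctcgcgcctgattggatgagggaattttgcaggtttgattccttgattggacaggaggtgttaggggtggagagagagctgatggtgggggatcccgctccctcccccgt
Robo4: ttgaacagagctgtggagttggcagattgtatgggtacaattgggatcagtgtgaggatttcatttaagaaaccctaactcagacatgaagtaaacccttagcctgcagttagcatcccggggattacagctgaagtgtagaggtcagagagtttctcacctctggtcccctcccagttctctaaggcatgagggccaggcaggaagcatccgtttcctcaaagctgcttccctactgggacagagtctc
Slit2: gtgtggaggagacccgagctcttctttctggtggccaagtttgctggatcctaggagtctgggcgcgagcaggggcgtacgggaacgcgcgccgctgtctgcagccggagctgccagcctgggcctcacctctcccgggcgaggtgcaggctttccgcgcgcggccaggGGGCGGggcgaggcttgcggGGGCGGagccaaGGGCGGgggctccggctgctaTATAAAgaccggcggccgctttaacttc
Slit3: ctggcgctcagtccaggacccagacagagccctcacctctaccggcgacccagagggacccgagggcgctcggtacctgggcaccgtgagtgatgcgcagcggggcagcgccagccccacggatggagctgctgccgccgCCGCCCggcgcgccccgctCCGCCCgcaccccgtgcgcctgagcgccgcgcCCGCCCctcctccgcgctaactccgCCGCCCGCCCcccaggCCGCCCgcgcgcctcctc
Unc5c: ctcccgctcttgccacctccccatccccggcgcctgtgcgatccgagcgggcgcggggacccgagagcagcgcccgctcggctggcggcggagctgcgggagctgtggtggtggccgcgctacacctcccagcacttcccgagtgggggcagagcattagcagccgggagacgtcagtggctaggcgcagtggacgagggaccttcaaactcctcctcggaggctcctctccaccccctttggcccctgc
GC content was 40.8%, 54% and 49.6% for Sema3a, Ephb1 and Robo4 and 69.6%, 78.8% and 71.2% for Slit2, Slit3 and Unc5c. The windows of Sema3a, Ephb1, Robo4 and Unc5c held neither motif, that of Slit2 held 3 GC boxes and 1 TATA box, and that of Slit3 held 6 GC boxes. A match is a description of the letters, and its relation to the levels was not tested. Each window precedes a RefSeq start, and a gene may have other starts with other letters. GENCODE begins Sema3a at 13175288 on GRCm39, so the Sema3a window may precede an inner start, which was not checked across builds.

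Blood endothelial cells were present as a smaller class, 156 to 451 cells per small intestinal library, and allowed the endothelial genes to be split into lymphatic and blood vessel sides. Sema3a, Sema3d and Ntn1 were high in LEC-like cells and low in blood endothelial-like cells. Sema3g, Epha4 and Nrp1 showed the opposite. Of the 41 genes tested, 11 were higher and 24 lower in LEC-like cells, or 85.4%. Of all genes tested, 27.8% were higher and 27.7% lower, 55.6% in all.

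Ntn1 stood at 34.7, 25.2, 31.1 and 38 CPM in blood endothelial-like cells, so that the log2 difference from LEC-like cells was 5.20 ± 0.10 (edgeR adjusted p = 1.24e-13). Sema3a stood at 2.27 to 3.93 CPM and Sema3d at 2.01 to 4.87 CPM in blood endothelial-like cells, with log2 differences of 7.36 ± 0.15 and 6.96 ± 0.14. In all 4 libraries these ligands were higher in LEC-like than in blood endothelial-like cells, with no overlap. Sema4d, a membrane semaphorin best known from lymphocytes, was also higher in LEC-like cells, at 14.4 to 17.6 CPM against 0 to 0.974 CPM. Its log2 difference of 4.53 ± 0.42 became 5.57 without proximal replicate 1.

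The receptors on the lymphatic side were Nrp2, Ephb1 and Unc5b. Nrp2 stood at 485 to 675 CPM in blood endothelial-like cells, a log2 difference of 1.57 ± 0.08. Ephb1 stood at 92.3 to 119 CPM and Unc5b at 78.2 to 134 CPM, with log2 differences of 1.43 ± 0.08 and 0.83 ± 0.10. On the blood vessel side, Nrp1 stood at 1498, 1231, 1100 and 1253 CPM, a log2 difference of -6.07 ± 0.19 (edgeR adjusted p = 8.22e-12). The 2 neuropilins were therefore split between the vessel types, with Nrp2 present in both at unequal levels and Nrp1 high in blood endothelial-like cells alone. Epha4 stood at 124 to 186 CPM in blood endothelial-like and 0.741 to 1.33 CPM in LEC-like cells. Sema3g, a secreted semaphorin of arteries, stood at 60.2 to 120 CPM against 0.0939 to 1.03 CPM, and its log2 difference of -8.26 ± 0.36 became -7.38 to -9.41 when a single library was left out, the outer values without proximal replicates 1 and 2.

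Several vascular genes were shared. Robo4 was higher in blood endothelial-like cells, at 217 to 248 CPM, with a log2 difference of -1.19 ± 0.08, and the ephrin Efnb2 likewise, at 201 to 310 CPM against 85.5 to 101 CPM (log2 difference -1.45 ± 0.09). The plexins Plxna2, Plxnd1 and Plxna4 were also higher in blood endothelial-like cells, with log2 differences of -1.31 ± 0.07, -1.02 ± 0.08 and -0.41 ± 0.07. Ephb4, the venous receptor of Efnb2, stood at 129 to 144 CPM in LEC-like cells and 129 to 170 CPM in blood endothelial-like cells, which overlapped and did not pass the test. Sema5a, higher in blood endothelial-like cells by a log2 difference of -2.32 ± 0.28, lost its call when predicted doublets were kept. The summed blood endothelial markers were 2430 to 2643 CPM in LEC-like cells, where Pecam1 and Cdh5 belong to both marker lists, and 13 of 21 immediate early and heat shock genes were lower and 4 higher in LEC-like cells; their part was not tested.

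**Figure D3:**
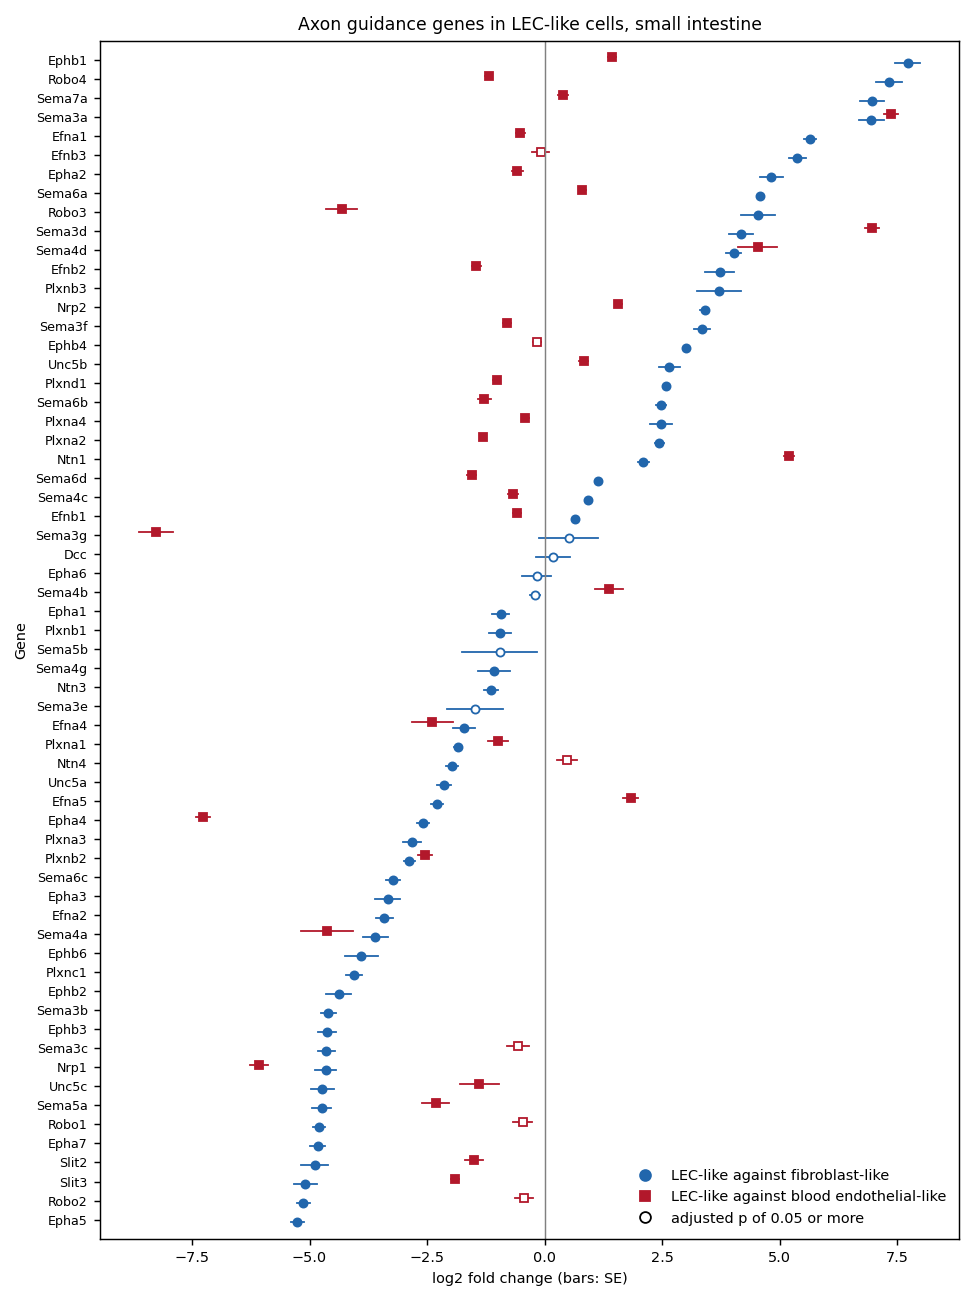
Log2 fold changes of the axon guidance genes in LEC-like cells against fibroblast-like cells (circles) and blood endothelial-like cells (squares), with SE bars, small intestine. Open symbols did not pass the test, and genes are ordered by the first comparison. Both comparisons share the LEC-like libraries. Sema3a, Sema3d and Ntn1 lie to the right in both, while Robo4 and Efnb2 change sides.

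The fibroblast classes differ by place in the wall. Telocytes and SEMFs lie under the epithelium, and trophocytes, the Grem1+ fibroblasts that sustain intestinal stem cells, lie deeper near the crypts. SEMF-like cells carried the repulsive netrin receptors Unc5c and Unc5b together with Robo1, Nrp1 and Plxna1, and trophocyte-like cells carried the ligands Slit2, Slit3, Ntn4, Sema3c and Sema3d. Of the 56 genes tested between SEMF-like and trophocyte-like cells, 18 were higher and 19 lower, or 66.1%. This is close to the 61.3% of all genes tested that differed, 29.6% of them higher and 31.7% lower.

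Unc5c stood at 483, 483, 460 and 705 CPM in SEMF-like cells, while trophocyte-like cells held 12.4, 20.6, 8.1 and 17.1 CPM. The log2 difference was 5.00 ± 0.22 (edgeR adjusted p = 1.42e-05). After thinning, 55.2% of SEMF-like and 2.68% of trophocyte-like cells had a UMI of Unc5c, and without thinning 77.1% and 6.83%. Unc5b stood at 133 to 219 CPM against 4.43 to 7.89 CPM, with a log2 difference of 4.69 ± 0.20. Neither receptor overlapped between the classes. Their ligand Ntn1 was lower in SEMF-like cells, at 72.5 to 298 CPM against 227 to 401 CPM, lower in every library, with a log2 difference of -1.31 ± 0.19. Ntn4, a netrin of basement membranes, stood at 2.51 to 4.66 CPM against 59.4 to 103 CPM, a log2 difference of -4.87 ± 0.15.

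Slit3 stood at 141, 285, 70.2 and 103 CPM in SEMF-like cells and at 2375, 2430, 1666 and 1947 CPM in trophocyte-like cells, a log2 difference of -4.24 ± 0.26 (edgeR adjusted p = 5.02e-05). Slit2 stood at 14.9 to 113 CPM against 342 to 505 CPM, a log2 difference of -3.70 ± 0.45. Their receptor Robo1 was higher on the SEMF side, at 637 to 926 CPM against 287 to 340 CPM (log2 difference 1.11 ± 0.10), whereas Robo2 stood at 1040 to 1588 CPM against 880 to 1298 CPM and did not pass the test. Slits and Robo1 were thus highest in different fibroblast classes, with Robo2 in both. Universal fibroblast-like cells, the Pi16+ fibroblasts thought to reside around vessels, held the most Slit3, at 3152 to 3467 CPM, above every trophocyte-like library. Their means of Slit2, Ntn4, Sema3c and Sema3d were 406, 128, 461 and 63.3 CPM. These ligands were therefore not particular to trophocyte-like cells.

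Among semaphorins and their receptors, Sema3d was lower in SEMF-like cells by a log2 difference of -4.31 ± 0.32, which became -4.94 without distal replicate 2. Sema3c, a secreted semaphorin, reached 204 to 253 CPM in trophocyte-like cells and 23.6 to 99.9 CPM in the SEMF-like class. The coreceptor Nrp1 stood at 835 to 1069 CPM in SEMF-like cells against 360 to 527 CPM, and Plxna1, a plexin that pairs with it, at 54.9 to 101 CPM against 15.2 to 21.1 CPM. For both genes the SEMF-like value exceeded the trophocyte-like value in all 4 libraries, with log2 differences of 0.88 ± 0.09 and 1.90 ± 0.11. Of the Eph system, Ephb2 and Efna5 were lower in SEMF-like cells, with log2 differences of -3.54 ± 0.08 and -1.94 ± 0.11, and Epha2 was higher by 2.54 ± 0.29 at a low level of 2.91 to 5.46 CPM. All 21 immediate early and heat shock genes were lower in SEMF-like cells, with a median log2 difference of -2.80. The summed blood endothelial markers were 111 to 223 CPM against 22.3 to 38.2 CPM and the smooth muscle markers 332 to 471 CPM against 76.2 to 118 CPM. Blood endothelial-like cells held Nrp1 at 1100 to 1498 CPM and Unc5b at 78.2 to 134 CPM, but Unc5c at 3.93 to 13 CPM and Robo1 at 10.2 to 35.2 CPM. The part of these genes and markers in the differences was not tested.

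Telocytes are Foxl1+ fibroblasts with long processes that feed signals to the epithelium, and 48 to 122 cells per small intestinal library passed their gate. Like SEMF-like cells they held more Unc5b and less Slit2 and Slit3 than trophocyte-like cells in all 4 libraries, and more Unc5c in 3 of 4, with 5.82 CPM against 8.1 CPM in distal replicate 1. Against SEMF-like cells they held more Efnb2, Epha4, Sema6a, Sema3f and Slit3 and less Nrp1, Robo1, Unc5c and Unc5b. Against trophocyte-like cells, 15 of 53 genes tested were higher and 17 lower, or 60.4%, where 28.9% of all genes tested differed (12.1% higher and 16.8% lower). Against SEMF-like cells, 9 of 45 were higher and 7 lower, or 35.6%, where 16.4% of all genes tested differed (9.1% higher and 7.3% lower).

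Efnb2 stood at 119, 106, 48.5 and 153 CPM in telocyte-like cells, at 7.9, 13.7, 3.93 and 11.2 CPM in SEMF-like cells, and 2 to 8.14 CPM were found in trophocyte-like cells. Its level was higher in telocyte-like cells by 4.75 ± 0.27 against trophocyte-like cells (edgeR adjusted p = 1.88e-08) and by 3.54 ± 0.18 against SEMF-like cells (edgeR adjusted p = 1.6e-07) on the log2 scale. Epha4, a receptor that binds ephrins of both types, stood at 37.7 to 56.2 CPM against 3.16 to 8.01 CPM in SEMF-like cells. Sema6a stood at 273 to 431 CPM against 32.6 to 89.9 CPM in SEMF-like cells, and Sema3f, the ligand of Nrp2, at 65.8 to 87.1 CPM against 13.3 to 33.4 CPM. Each of these genes was higher in telocyte-like cells in every library against both other classes. The summed blood endothelial markers were 142 to 370 CPM in telocyte-like, 111 to 223 CPM in SEMF-like and 22.3 to 38.2 CPM in trophocyte-like cells. Pericyte markers summed to 473 to 756, 148 to 399 and 475 to 1092 CPM, and smooth muscle markers to 1049 to 1758, 332 to 471 and 76.2 to 118 CPM, in the same order. Blood endothelial-like cells held Efnb2 at 201 to 310 CPM and Epha4 at 124 to 186 CPM, and the part of such cells was not tested. Sema4d stood at 4.19 to 34.9 CPM in telocyte-like and 0.853 to 2.22 CPM in SEMF-like cells. T cell or ILC markers summed to 8.37 to 44.6 CPM in telocyte-like and 2.16 to 3.75 CPM in SEMF-like cells, and T cell or ILC-like cells held Sema4d at 186 to 237 CPM; the part of such cells in the Sema4d value was not tested.

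SEMF-like cells exceeded telocyte-like cells in the receptors Nrp1, Robo1, Unc5c and Unc5b. Nrp1 stood at 151 to 345 CPM in telocyte-like cells, below every SEMF-like library, with a log2 difference of -1.89 ± 0.18. Robo1 stood at 270 to 402 CPM, with a log2 difference of -1.24 ± 0.15. Unc5c in telocyte-like cells was 122, 177, 5.82 and 163 CPM, so that distal replicate 1 lay with the trophocyte-like level, and the log2 difference was -2.24 ± 0.37. Unc5b had a mean of 112 CPM in telocyte-like and 185 CPM in SEMF-like cells (log2 difference -0.68 ± 0.11). Slit3 was higher in telocyte-like than in SEMF-like cells by 1.39 ± 0.25 on the log2 scale, a call lost when free RNA was subtracted. The summed trophocyte markers were 821 to 1283 CPM in telocyte-like and 147 to 208 CPM in SEMF-like cells. Only the SEMF gate, and not the telocyte gate, limited the number of trophocyte markers. Trophocyte-like cells held Slit3 at a mean of 2104 CPM, and the part of such cells was not tested. Against trophocyte-like cells, Slit3 and Slit2 were lower by log2 differences of -2.82 ± 0.17 and -3.08 ± 0.24. The call of Plxnb1 against trophocyte-like cells was lost without proximal replicate 1 or distal replicate 2 (highest adjusted p 0.108), and that of Robo2 against SEMF-like cells without proximal replicate 2 or distal replicate 1 (highest adjusted p 0.095) and with no library block. Epha2 against trophocyte-like cells had a log2 difference of 3.64 ± 0.68, which became 2.88 without distal replicate 1. Of 21 immediate early and heat shock genes, 20 were lower against trophocyte-like cells and 14 higher against SEMF-like cells, and their part was not tested.

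**Figure D4:**
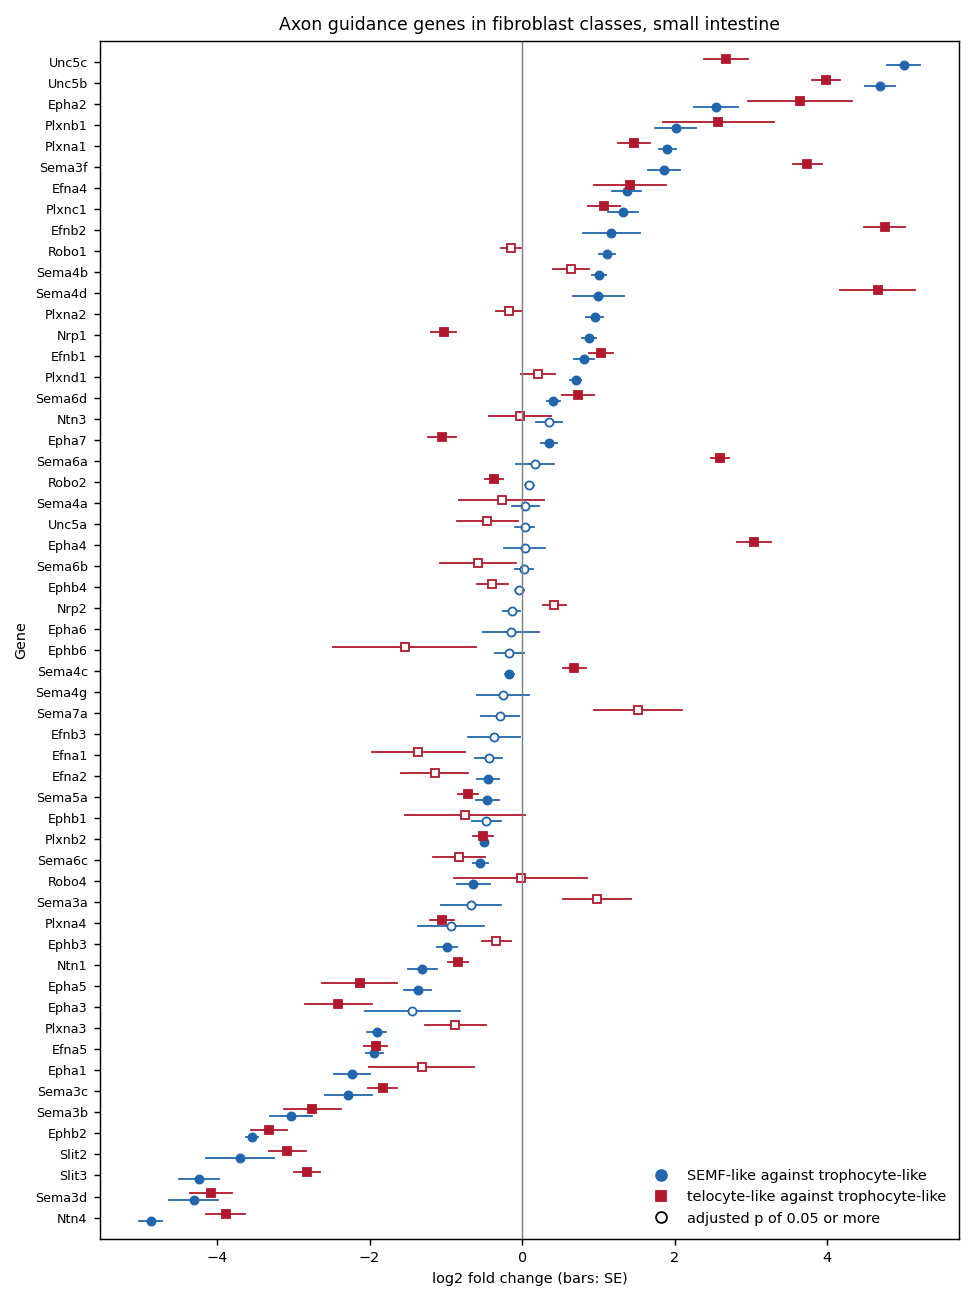
Log2 fold changes of the axon guidance genes in SEMF-like (circles) and telocyte-like cells (squares), each against trophocyte-like cells, with SE bars, small intestine. Open symbols did not pass the test, and the comparisons share the trophocyte-like libraries. Genes are ordered by the SEMF-like comparison, with Unc5b and Unc5c at the top and Ntn4, Sema3d, Slit3 and Slit2 at the bottom. Efnb2, Epha4 and Sema6a lie to the right mainly for telocyte-like cells.

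Pericytes wrap small vessels, and 3 small intestinal libraries had enough of them (49, 69 and 150 cells), while distal replicate 1 with 12 cells was left out. They carried Sema5b, Epha2, Sema6d, Plxnd1 and Ntn4 and little Robo1, Robo2 or Sema3c. Of 60 genes tested against fibroblast-like cells, 17 were higher and 18 lower, or 58.3%, where 30.4% of all genes tested differed (13% higher and 17.4% lower). Sema5b, a transmembrane semaphorin, stood at 42.7, 71.1 and 54.1 CPM against 0.239, 0.284 and 0.411 CPM (log2 difference 7.42 ± 0.57, edgeR adjusted p = 9.77e-14). Epha2 stood at 75.6 to 119 CPM against 1.03 to 2.19 CPM, and Ntn4 at 189 to 293 CPM against 37 to 72.3 CPM. These 3 genes had higher means in pericyte-like cells than in any other of the 12 classes. Sema6d, a transmembrane semaphorin, and the plexin Plxnd1 were higher by 3.11 ± 0.17 and 2.79 ± 0.17 on the log2 scale. Robo2 stood at 24.4 to 49 CPM in pericyte-like cells, a log2 difference of -5.21 ± 0.20, and Robo1 and Sema3c followed with -4.47 ± 0.22 and -4.67 ± 0.25. Efnb2 was higher by 2.54 ± 0.30, which became 3.26 without distal replicate 2, and Efna5 was lower by a log2 difference of -3.94 ± 0.25, which became -3.26 without the same library. Ephb2, Plxnc1, Epha5 and Sema3b were at or near 0 in pericyte-like cells, and their fitted folds are not given because they moved widely when 1 library was left out. The summed blood endothelial markers were 416 to 1551 CPM in pericyte-like against 49 to 59.8 CPM in fibroblast-like cells of the same 3 libraries, and the smooth muscle markers 2389 to 4367 CPM against 197 to 228 CPM. Blood endothelial-like cells held Epha2 at 38.1 to 51.9 CPM, Sema6d at 88.2 to 130 CPM, Plxnd1 at 191 to 238 CPM and Efnb2 at 201 to 310 CPM, but Sema5b at 0 to 3.25 CPM and Ntn4 at 5.5 to 11 CPM. Of 21 immediate early and heat shock genes 16 were higher and 1 lower in pericyte-like cells. The part of these markers and genes in the differences was not tested.

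The proximal and distal small intestine were compared within trophocyte-like, SEMF-like and LEC-like cells, with 2 libraries on each side. The test called 0 of 57, 0 of 54 and 0 of 55 axon guidance genes by edgeR, where it called 0.063%, 0% and 0% of all genes (0.0343% higher and 0.0286% lower proximally in trophocyte-like cells), and limma-voom called 0 in each class. DESeq2 called 3 of 57, 1 of 54 and 1 of 49, and 1.48%, 0.26% and 0.303% of all genes. The edgeR test with no filter on low counts called 2 of 67, 9 of 67 and 3 of 68, and 0.584%, 1.05% and 0.783% of all genes. Replicates 1 and 2 carried different sets of hashtags, and with the replicate number as a block edgeR called 5 of 57, 11 of 54 and 3 of 55, and 3.99%, 2.32% and 1.68% of all genes. At an unadjusted p below 0.05 there were 9, 9 and 5 of these genes, and 6%, 3.01% and 4.24% of all genes. In SEMF-like cells Slit2 stood at 53.3 and 113 CPM proximally and at 14.9 and 21.4 CPM distally (log2 difference 2.15 ± 0.37, edgeR adjusted p = 0.628). In trophocyte-like cells Plxna4 stood at 35.9 and 29.5 CPM proximally and 59.8 and 69.4 CPM distally (log2 difference -0.98 ± 0.15, edgeR adjusted p = 0.113). In LEC-like cells Nrp1 stood at 14.8 and 15 CPM proximally and 28.3 and 27.8 CPM distally (log2 difference -0.89 ± 0.13, edgeR adjusted p = 0.337). These Nrp1 levels were 4.65% to 9.34% of its level in free RNA, and the part of free RNA was not tested. The libraries of these genes did not overlap between regions, but the differences did not pass the adjustment for all genes in the test without the block.

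The cecum and the large intestine were then set against the small intestine within telocyte-like, SEMF-like and universal fibroblast-like cells. With 1 library each, the segments of the large bowel were treated as 1 group, so the spread within that group includes the difference between the segments. Slit2 was lower in the large bowel in all 3 classes, Efna5, Nrp1 and Plxnc1 likewise, Unc5c fell in SEMF-like cells and Sema3a rose in telocyte-like cells. Of 33 genes tested in telocyte-like cells, 3 were higher and 11 lower in the large bowel, 42.4%, where 20.6% of all genes differed (10.7% higher and 9.92% lower). In SEMF-like cells 13 of 56 were higher and 15 lower, 50%, where 39.3% of all genes differed (21.3% higher and 18% lower). In universal fibroblast-like cells 2 of 47 were higher and 5 lower, 14.9%, where 9.78% of all genes differed (4.45% higher and 5.33% lower). This last count of 7 rested on single libraries, with 2 called without the cecum, 3 without proximal replicate 1 or distal replicate 2, 4 without proximal replicate 2 and 19 without the large intestine. The share of all genes was 4.3% without the cecum, 2.73% to 3.7% without those small intestinal libraries and 21.3% without the large intestine. In SEMF-like cells 28 calls became 18 without the cecum, with 19.4% of all genes called.

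In telocyte-like cells Slit2 stood at 80.6, 91.5, 46.5 and 18.8 CPM in the small intestine, against 0.532 CPM for cecum and 2.1 CPM for large intestine. The log2 difference was -5.09 ± 0.59 (edgeR adjusted p = 0.00121) and became -6.57 without the large intestine. In SEMF-like cells Slit2 stood at 14.9 to 113 CPM in the small intestine and at 1.13 and 1.24 CPM in the cecum and large intestine. That log2 difference of -5.24 ± 1.03 became -4.49 without proximal replicate 2, and its call was lost without the cecum (edgeR adjusted p = 0.0553), under limma-voom and with free RNA subtracted. In universal fibroblast-like cells Slit2 stood at 351, 391, 365 and 519 CPM against 45 and 146 CPM (log2 difference -2.05 ± 0.38, edgeR adjusted p = 0.0187), and it became -2.97 without the large intestine, while the call was lost with replicate 1 of the small intestine alone. Slit2 was therefore below every small intestinal library in each class, though still measurable in universal fibroblast-like cells. In free RNA it stood at 110 to 160 CPM in the small intestine and at 21.4 and 46.5 CPM in the cecum and large intestine. Slit3 was lower in telocyte-like cells, at 106 and 99 CPM against 284 to 427 CPM (log2 difference -1.72 ± 0.24), a call lost with doublets kept, and did not pass the test in universal fibroblast-like cells, at 2686 and 2471 CPM against 3152 to 3467 CPM.

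Unc5c in SEMF-like cells stood at 483, 483, 460 and 705 CPM in the small intestine, and the cecum held 2.82 CPM and the large intestine 14.1 CPM. The log2 difference was -5.82 ± 0.66 (edgeR adjusted p = 0.00114), and it became -7.38 without the large intestine and -5.07 without the cecum. Unc5b in the same cells stood at 133 to 219 CPM against 37.5 and 53.4 CPM, a log2 difference of -1.85 ± 0.25. Both repulsive netrin receptors were thus lower in the large bowel in SEMF-like cells. Markers of other classes also differed by region in SEMF-like cells. The summed trophocyte markers were 147 to 208 CPM in the small intestine and 850 to 1524 CPM in the large bowel, and the universal fibroblast markers 114 to 200 CPM and 496 to 693 CPM. The telocyte markers were 630 to 941 CPM and 1054 to 1752 CPM, the fibroblast markers 9210 to 12068 CPM and 18633 to 20371 CPM, and the lamina propria fibroblast markers 4802 to 7369 CPM and 11076 to 14653 CPM. The blood endothelial markers were 111 to 223 CPM and 20.4 to 36 CPM, and the pericyte markers 148 to 399 CPM and 42 to 45.5 CPM. In telocyte-like cells the universal fibroblast markers were 81.6 to 164 CPM and 366 to 434 CPM, and the blood endothelial markers 142 to 370 CPM and 12.4 to 46.3 CPM. Their own telocyte markers were 7081 to 9884 CPM and 5184 to 5570 CPM, the pericyte markers 473 to 756 CPM and 109 to 206 CPM, and the smooth muscle markers 1049 to 1758 CPM and 374 to 733 CPM. In universal fibroblast-like cells their own markers were 1337 to 1726 CPM and 2416 to 2494 CPM, and the trophocyte markers 2568 to 3141 CPM and 2433 to 2440 CPM. In the same cells the pericyte markers were 79.1 to 214 CPM and 12.7 to 45.8 CPM, and the blood endothelial markers 19.5 to 35.3 CPM and 6.6 to 15.8 CPM. Markers of proliferating cells there were 1.95 to 4.24 CPM and 14 to 22.7 CPM. The part of these markers in the differences between regions was not tested. Their ligand Ntn1 was lower in telocyte-like cells, at 120 to 299 CPM against 23.7 and 67.8 CPM (log2 difference -2.16 ± 0.43), which became -3.11 without the large intestine and lost its call with replicate 1 of the small intestine alone. Epha7, a receptor for A-type ephrins, was lower in SEMF-like and telocyte-like cells by log2 differences of -1.98 ± 0.46 and -2.51 ± 0.53, which became -3.15 and -4.64 without the large intestine, and the value in SEMF-like cells became -1.33 without the cecum. The call of Epha7 in telocyte-like cells was lost with replicate 1 of the small intestine alone.

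Efna5, a ligand of Epha7, stood at 239, 372, 363 and 343 CPM in telocyte-like cells of the small intestine and at 48.2 and 38.8 CPM in the cecum and large intestine (log2 difference -2.84 ± 0.25, edgeR adjusted p = 0.000295). In SEMF-like cells its log2 difference was -1.66 ± 0.30 and in universal fibroblast-like cells -0.85 ± 0.17, where the call was lost in 6 of 14 alternatives: with the stricter gate, with replicate 1 of the small intestine alone, and without proximal replicate 1, proximal replicate 2, distal replicate 2 or the cecum (highest edgeR adjusted p without a library 0.0762). Nrp1 stood at 835 to 1069 CPM in SEMF-like cells of the small intestine against 361 and 340 CPM, a log2 difference of -1.22 ± 0.17. In telocyte-like and universal fibroblast-like cells Nrp1 was also lower, by log2 differences of -1.37 ± 0.27 and -0.63 ± 0.14, and both calls were lost without the cecum (edgeR adjusted p = 0.066 and 0.0604) and with replicate 1 of the small intestine alone. The call in telocyte-like cells was also lost with the stricter gate, and that in universal fibroblast-like cells without proximal replicate 1, proximal replicate 2 or distal replicate 2 (highest edgeR adjusted p 0.0968). Plxnc1, a plexin that binds Sema7a, was lower in all 3 classes, with log2 differences of -3.07 ± 0.63, -2.30 ± 0.42 and -1.92 ± 0.25 in telocyte-like, SEMF-like and universal fibroblast-like cells. The value in telocyte-like cells became -4.18 without the cecum and -1.98 without the large intestine, and its call was lost with replicate 1 of the small intestine alone.

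Sema3a in telocyte-like cells stood at 15.7, 6.16, 19.4 and 2.09 CPM in the small intestine and at 71.6 and 53.8 CPM in the cecum and large intestine (log2 difference 2.61 ± 0.41, edgeR adjusted p = 0.00441). In free RNA Sema3a stood at 18.3 to 109 CPM in the small intestine and at 16.3 and 41.5 CPM in the large bowel. The summed LEC markers in telocyte-like cells were 204 to 343 CPM in the small intestine and 383 CPM in the large bowel. Their part in the Sema3a value was not tested. Plxnd1 in SEMF-like cells was higher in the large bowel by 0.99 ± 0.16 on the log2 scale. Sema3f and Epha4 in SEMF-like cells, with log2 differences of 1.40 ± 0.34 and 1.45 ± 0.32, lost their calls without the large intestine (edgeR adjusted p = 0.108 and 0.0596), and Plxna4, with 1.37 ± 0.35, lost it without the cecum (0.137) and with the stricter gate. Sema3f and Epha4 were also higher in telocyte-like than in SEMF-like cells of the small intestine, and the telocyte markers in SEMF-like cells were higher in the large bowel. Their part in these values was not tested. The largest rise among the named genes in SEMF-like cells was that of Sema3e, with a log2 difference of 3.96. It became 5.01 without proximal replicate 2, and the call was kept in all 12 alternatives. Sema4g had the next largest rise, and its call was kept in all 13 alternatives. Both genes were rare in SEMF-like cells of the small intestine, where on average 0.0606% and 0.329% of cells had a UMI without thinning. Sema3e in universal fibroblast-like cells stood at 88.4 CPM for cecum and 7.3 CPM for large intestine, against 1.01 to 2.64 CPM in the small intestine. This call in universal fibroblast-like cells was lost in 6 of 14 alternatives, among them without the cecum.

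1 set of hashtags was used for both large bowel libraries and for replicate 1 of the proximal and the distal region. With replicate 1 of the small intestine alone, 5 of 38 axon guidance genes in telocyte-like, 22 of 51 in SEMF-like and 1 of 48 in universal fibroblast-like cells were called, with 3.79%, 20% and 1.81% of all genes. The immediate early and heat shock genes were higher in the large bowel, 11 of 20 tested in telocyte-like, 21 of 21 in SEMF-like and 4 of 21 in universal fibroblast-like cells and none lower, and their part in these differences was not tested. Telocyte-like cells numbered 48 to 122 per small intestinal library, 500 for the cecum and 3196 for large intestine, and 34.2% to 51.8% of them lay at the gate's limit.

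**Figure D5:**
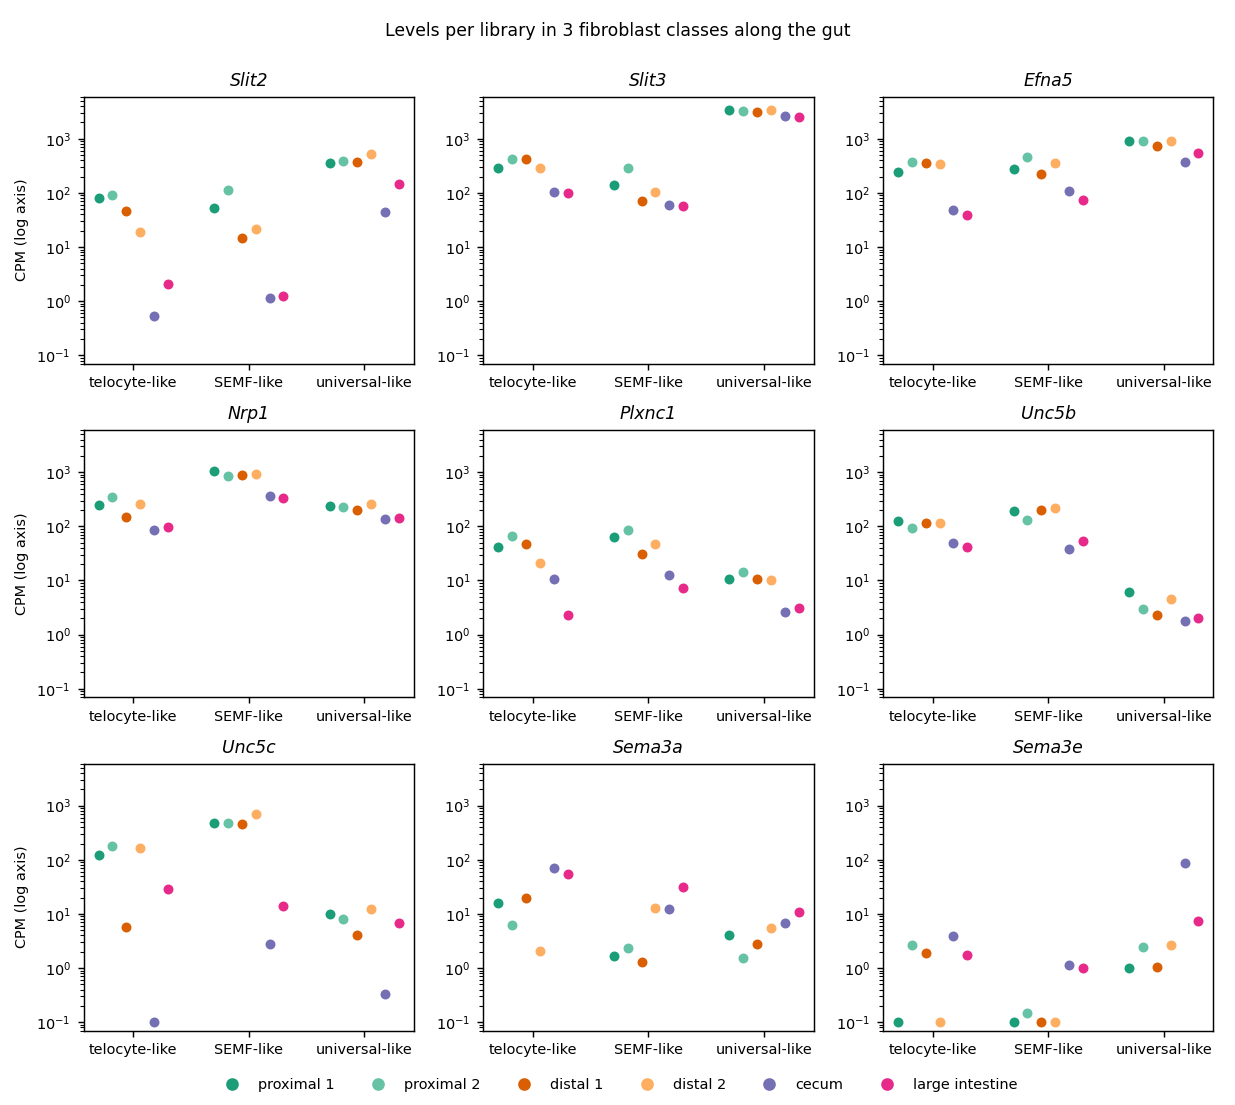
Levels of 9 axon guidance genes in 3 fibroblast classes, in CPM on a log axis. Each point is 1 library, with 4 small intestinal libraries and 1 each of cecum and large intestine, and a point on the bottom edge is a library with no UMI of the gene. Slit2, Efna5 and Plxnc1 are lower in the cecum and large intestine in each class, and Unc5c drops in SEMF-like cells.

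The genes of the class 3 semaphorins offered a comparison of neighbors. On chromosome 5 of the GRCm39 annotation Sema3d (12433124 to 12638929), Sema3a (13175288 to 13653578), Sema3e (14075290 to 14306719) and Sema3c (17779219 to 17935648) follow each other on the plus strand. Sema3d and Sema3a had their highest means in LEC-like cells (535 ± 60.7 and 517 ± 21.1 CPM, SD, n = 4 libraries). Sema3e, a ligand of Plxnd1, had its highest mean in glia-like cells (601 CPM) and stood at 0 to 0.362 CPM in LEC-like cells. Sema3c had its highest mean in universal fibroblast-like cells (461 ± 62.3 CPM). Sema3d and Sema3a thus shared their highest class, and Sema3e and Sema3c each had another.

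Other genes of the pathway were read from a list of 26 guidance partners and modulators and a list of 38 intracellular mediators. Between LEC-like and fibroblast-like cells, 7 of 25 partners tested were higher and 16 lower, and 22 of 37 mediators were higher and 12 lower, where 74.6% of all genes differed. Flt4, on the list of partners, was also a marker of the LEC-like gate, so its result here followed from the gate. Vegfc, a growth factor that binds Nrp2, stood at 6.61 CPM in LEC-like and 181 CPM in fibroblast-like cells on average, and Neo1, a netrin receptor outside the chosen families, at 4.45 and 107 CPM. Among the mediators, Rnd1, a small GTPase that binds plexins, stood at 165 CPM in LEC-like and 1.3 CPM in fibroblast-like cells (log2 difference 7.17), and Ablim3, an actin-binding protein, at 477 and 9.14 CPM. Between SEMF-like and trophocyte-like cells, 6 of 20 partners were higher and 10 lower, led by Flrt2, a ligand of Unc5 receptors, with 183 CPM on the trophocyte-like and 2.56 CPM on the SEMF-like side, and 8 of 35 mediators were higher and 19 lower, where 61.3% of all genes differed. In SEMF-like cells of the large bowel, 13 of 22 partners were higher and 4 lower than in the small intestine, and 6 of 35 mediators were higher and 10 lower, where 39.3% of all genes differed, so that the mediators lay near the background.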

How the data were processed

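Per the labels, the authors sorted tdTomato+ lamina propria cells and made droplet 3' libraries, and the deposited matrices hold whole-number UMI counts for every barcode, with the hashtag counts, before any filter on cells, doublets or ambient RNA. The submitters' notes name Cell Ranger 8.1.0 and build mm39, and the matrix headers name Cell Ranger 8.0.1. No column of another series had to be left out (0 columns).

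Barcodes were kept at the limits of the study's methods (1000 to 7500 genes, 2500 to 40000 UMIs, under 10% mitochondrial UMIs), and doublets were predicted per library with Scrublet in scanpy and removed (4.91% to 11.4%). The study also corrected for ambient RNA and dropped clusters almost free of tdTomato, and neither step was applied to the main counts. Cells were put into classes by the number of marker genes with a UMI, with limits set after the marker distributions had been seen, and no clustering was used. The members, the gene lists and the comparisons were chosen with earlier results of these data known. Levels (CPM) are UMIs of a gene per 1000000 UMIs of a class in a library, and a class needed at least 20 cells in a library. Free RNA is the summed profile of barcodes with at most 100 UMIs. Cells were thinned to 2500 UMIs for shares of cells.

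UMIs were summed per library and class and tested with edgeR's quasi-likelihood test (filterByExpr, minimum count 10, TMM, Benjamini-Hochberg over all genes tested, threshold 0.05), with library as a block between classes and none between regions. The SE is the absolute log2 difference over the root of the F statistic. The test was tested on simulated data with 200 genes changed 2-fold. Members were ranked by change, up to 8 per direction, among those called in the same direction in every library. Between regions, groups that did not overlap took the place of that condition. Full statistics were given for part of these members and of their binding partners, and some are not named. Limits on counts: 3 UMIs in a class are the most that a count of 0 allows at 95% confidence, and this covers counting error only. Precision follows the number of cells in a class. Among the classes tested this number is smallest for pericyte-like and telocyte-like cells of the small intestine. Glia-like and myeloid-like cells, which were described without a test, were fewer than telocyte-like cells in every small intestinal library.

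Alternatives were limma-voom, DESeq2, RLE scaling, no filter on low counts, stricter gates, 10% free RNA subtracted, doublets kept, the library block removed or a replicate block added, replicate 1 of the small intestine alone, and each library left out. Promoter sequences and their coordinates are RefSeq's on GRCm38.p6, and gene positions are those of GENCODE on GRCm39, the build of the files. Positions were not converted between builds, and the 2 were set side by side only for the start of Sema3a. Tests ran in edgeR 4.0.16, with DESeq2 1.42.0 and limma 3.58.1 as alternatives, under R version 4.3.3. Sums, gates and doublets ran under Python 3.11.15 with scanpy 1.11.5, and pandas 2.3.3, scipy 1.17.1 and numpy 2.4.6, and plots with matplotlib 3.10.9.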

Additional observations from a re-analysis of the deposited data

How the results depend on the processing

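Among 129 values of 52 named genes, 1479 of 1577 alternative values kept their direction and side of the threshold. Another 98 kept the direction but no longer passed, and 0 changed sign. Most of the 98 fell in the comparisons of the large bowel with the small intestine. The named genes had been picked because they were called with the same direction in every library or with groups that did not overlap. That choice favored stable signs. Counts of axon guidance genes called between classes stayed within 1.5 times the main count under the alternatives run. They ranged over 54 to 58 without 1 library for LEC-like against fibroblast-like cells, 33 to 38 for LEC-like against blood endothelial-like, 28 to 33 for telocyte-like against trophocyte-like, 32 to 36 for SEMF-like against trophocyte-like, 15 to 17 for telocyte-like against SEMF-like and 30 to 33 for pericyte-like against fibroblast-like cells. Under the other alternatives they ranged over 55 to 58, 34 to 42, 28 to 33, 33 to 38, 14 to 19 and 28 to 39, in the same order. Between proximal and distal small intestine, where edgeR called 0, DESeq2 called 3 genes in trophocyte-like, 1 in SEMF-like and 1 in LEC-like cells, no filter gave 2, 9 and 3, and leaving out 1 library gave 0 to 1, 0 to 3 and 0 to 0. Replicate numbers are shared by the regions, but with 2 pairs they were not taken as a pairing (correlation of same-numbered deviations 0.50, 0.47 and 0.40 over 9081, 9473 and 8792 genes). A fit with the replicate block called 5, 11 and 3 genes in these classes. For the large bowel, telocyte-like cells had 14 calls, 22 with no filter, 7 with the stricter gate, 5 with replicate 1 of the small intestine alone and 10 to 15 without 1 library. SEMF-like cells had 28 calls and 18 to 29 without 1 library, the lowest without the cecum. Universal fibroblast-like cells had 7 calls, 19 with no filter, 4 with the stricter gate, 1 with replicate 1 of the small intestine alone, and 2 to 19 without 1 library: 2 without the cecum, 19 without the large intestine, 3 without proximal replicate 1 or distal replicate 2 and 4 without proximal replicate 2. The cause of these changes was not tested. Depth limits low genes, since classes differ in UMIs per cell, and the cecum and large intestine have 1 library each.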

Other observations

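Classes outside the comparisons also carried axon guidance genes. Glia-like cells, read from the 3 small intestinal libraries with at least 20 of them, held Sema3e at 576, 524 and 702 CPM, which no other class approached. They also held Ephb2 at 178 to 477 CPM, Sema3b at 168 to 282 CPM and Plxnb3, a plexin of oligodendrocytes and glia, at 38.2 to 56.1 CPM. T cell or ILC-like cells held Sema4d, a semaphorin of lymphocytes, at 237, 229, 186 and 187 CPM. Myeloid-like cells held Sema4d at 125 to 194 CPM and Plxnc1 at 61.1 to 175 CPM. Smooth muscle or myofibroblast-like cells held Sema5a at a mean of 513 CPM, the highest of the classes, and Ntn1 at a mean of 553 CPM. No test was run on these classes.

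In LEC-like cells of the cecum and large intestine, which numbered 226 and 263, several genes lay below every small intestinal library. The summed LEC markers of these cells were 20681 to 20846 CPM, where the small intestine held 13560 to 14070 CPM, and their part was not tested. Sema7a stood at 23.5 and 16.5 CPM, where the small intestine held 107 to 158 CPM. Efnb3 stood at 1.52 and 1.69 CPM against 14.6 to 22.6 CPM, and Ephb1 at 109 and 137 CPM against 259 to 335 CPM. Sema4d lay above, at 32.6 and 27.9 CPM against 14.4 to 17.6 CPM, while Sema3d overlapped, at 482 and 581 CPM against 470 to 615 CPM. In trophocyte-like cells Slit2 stood at 38 and 75.3 CPM in the cecum and large intestine against 342 to 505 CPM, and Slit3 at 2512 and 2396 CPM against 1666 to 2430 CPM. These differences between regions were not tested.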
